A study of Arabidopsis thaliana with 12 samples.

Results

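The iron-sulfur cluster assembly machinery of Arabidopsis thaliana was followed through 39 loci listed by known function, of 33607 genes in all. These loci were chosen with earlier results of these data known. They comprise 7 genes of the plastid SUF pathway, 8 plastid carriers, 7 genes of the mitochondrial ISC core, 7 mitochondrial carriers, the mitochondrial transporter ATM3, 8 genes of the cytosolic CIA pathway and NEET. Polyadenylated RNA of wild-type Columbia-0 (WT Col-0) plants was sequenced from whole rosettes and from roots, in 4 groups of 3 libraries. Seedlings spent 10 days in vitro on full ES medium with 1.5% sucrose, at 25 seedlings per plate, in unbroken light (50 µmol photons m-2 s-1). A transfer followed for 72 h to full ES medium again (control rosettes and control roots) or to ES medium without Fe plus 100 µM FerroZine, a chelator of ferrous iron (Fe-deficient rosettes and Fe-deficient roots). The effects of missing iron and of the chelator cannot be told apart, and each library is of whole organs from plants grown on plates, with no pooling scheme stated.

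Iron-sulfur clusters are cofactors of electron transfer and catalysis, and plants build them on scaffold proteins from iron and from sulfur that a cysteine desulfurase takes off cysteine. Plastids use the SUF pathway, mitochondria use the ISC pathway, and the CIA pathway matures the cytosolic and nuclear proteins with sulfur that leaves mitochondria through ATM3. Carriers such as the NFU proteins, the A-type proteins and monothiol glutaredoxins pass finished clusters to recipient proteins. In leaves most of the demand lies in chloroplasts, where photosystem I, the cytochrome b6f complex, ferredoxins and the reductases of nitrite and sulfite hold clusters.

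Expression is given as RPKM, a read count corrected for the length of the transcript and the size of the library, so levels can be compared between genes. The tables of rosettes and roots were normalised separately, and read depth is unknown, so the spread between 3 replicates is the measure of error. The labels do not say that replicates came from separate cultures, and p-values then measure the spread between these samples, which may be technical. The number of genes that reached 1 RPKM was 18879 to 18947 in rosette libraries and 19790 to 19843 in root libraries. RNA integrity scores were 8.3 to 8.7 for leaves and 9.8 to 10 for roots. In rosettes the marker RCA was tied at 2616.5 RPKM in all 6 libraries. The marker RBCS1A likewise read 7618.66 RPKM in all 3 Fe-deficient rosette libraries. The distribution of values looks equalised across the 6 libraries of a table, and the reason for the ties was not tested. The 5 rosette markers other than RCA summed to 12285 to 13870 RPKM. In roots the marker PYK10 was tied at 2926.32 RPKM, and the other 5 root markers summed to 153 to 217 RPKM. Of 7 iron status genes, 6 rose and 1 fell in each organ. Over all genes tested, 0.679% rose and 1.28% fell in rosettes, and 3.52% and 2.35% in roots. The 7 genes were chosen with earlier results of these data known, so their count is a description. FER1, a gene of iron storage, fell: its control and Fe-deficient means were 232.6 and 7.97 RPKM in rosettes, and 78.1 and 16.2 RPKM in roots. The regulator bHLH38 rose: its means were 0.30 and 279 RPKM in rosettes, and 2.27 and 158.8 RPKM in roots.

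SUFB and NEET are the members whose values changed most, and the 300 bases before their annotated starts are shown because those windows were searched for motifs. SUFB (AT4G04770) lies on chromosome 4 from 2427686 to 2429899 on the minus strand of TAIR10.1 and has 2 exons. Its window is chr4:2429900-2430199, minus strand. NEET (AT5G51720) lies on chromosome 5 from 21009347 to 21010345 on the plus strand and also has 2 exons. Its window is chr5:21009047-21009346, plus strand. Neither window overlaps another annotated gene. The sequences come from the RefSeq TAIR10.1 genome, and capitals mark the motif CACGAG on either strand.
SUFB: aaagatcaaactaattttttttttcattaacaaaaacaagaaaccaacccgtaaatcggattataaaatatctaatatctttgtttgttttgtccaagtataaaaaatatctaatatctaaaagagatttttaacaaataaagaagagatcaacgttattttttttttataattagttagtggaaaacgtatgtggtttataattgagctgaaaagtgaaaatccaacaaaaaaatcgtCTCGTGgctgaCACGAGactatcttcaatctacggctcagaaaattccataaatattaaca
NEET: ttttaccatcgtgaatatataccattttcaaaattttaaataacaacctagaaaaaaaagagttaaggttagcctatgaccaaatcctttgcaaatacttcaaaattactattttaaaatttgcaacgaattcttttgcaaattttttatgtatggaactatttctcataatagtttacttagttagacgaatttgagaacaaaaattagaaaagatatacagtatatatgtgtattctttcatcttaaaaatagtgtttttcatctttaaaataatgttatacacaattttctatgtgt
The motif in the SUFB window was picked after that sequence had been read, so its occurrence is a description. It reads once on each strand, with 5 bases between the copies, at 61 and 50 bases before the start. Among the same windows of 27443 nuclear protein-coding genes, 5.02% held CACGAG on at least 1 strand and 28 genes (0.102%) held it on both. Of the 39 members, 3 held it (7.69%), namely SUFB, ATM3 and AE7, and SUFB held it on both strands. The G-box CACGTG, a site of many bHLH and bZIP factors that reads the same on both strands, was in 3 member windows (7.69%), those of NFU1, ISU2 and IBA57.1, against 7.09% of all windows. The broader motif CANNTG, which includes the G-box, was in 56.4% of member windows and 61.9% of all windows. The SUFB and NEET windows held neither of these. In wider windows of 1000 bases, CACGAG was in 8 members (20.5%, against 17.5% of all genes). There 2 members held it on both strands (5.13%, against 1.11%), SUFB and ISU1, and ISU1 was not called in either organ. A match is a run of letters and was not tested as a binding site.

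How the plastid SUF pathway responds in leaves was addressed first. SUFB encodes the scaffold subunit on which the plastid cluster is built, within the SUFBCD complex. Its level was 119.67, 122.7 and 120.36 RPKM in the control rosettes and 15.28, 17.26 and 20.57 RPKM in the Fe-deficient rosettes. All 3 control libraries lay far above all 3 Fe-deficient libraries. The mean went from 120.9 ± 1.59 to 17.7 ± 2.67 RPKM (SD, n = 3 each), a 6.83-fold lower level. On the log2(RPKM + 0.5) scale, SUFB fell by 2.75 with a standard error of 0.10, a 95% interval of -3.0 to -2.49 and an adjusted p of 7.9e-05 (limma, Benjamini-Hochberg over all genes tested). In bulk RNA, fewer cells of a type and less RNA per cell cannot be told apart. SUFB shares 84 bases with AT4G04760 on the opposite strand, which averaged 0.77 RPKM in control rosettes and 0.627 RPKM in Fe-deficient rosettes.

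The partners of SUFB in the complex kept levels close to those of the controls. SUFC (AT3G10670), the ATPase subunit, measured 55.11, 56.39 and 53.84 RPKM in control rosettes and 49.52, 49.25 and 52.19 RPKM in Fe-deficient rosettes. The Fe-deficient libraries all lay slightly below the controls, but SUFC did not pass the test. SUFD (AT1G32500), the remaining subunit, measured 63.03, 58.76 and 60.62 RPKM against 59.93, 58.26 and 57.16 RPKM, and the groups overlapped. NFS2 (AT1G08490), the plastid cysteine desulfurase, measured 25.32, 26.24 and 26.8 RPKM against 28.77, 23.11 and 24.54 RPKM, again with overlap.

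The SUFE proteins stimulate the desulfurase. SUFE1 lay at 26.73 to 28.23 RPKM in control rosettes and at 23.06 to 24.17 RPKM in Fe-deficient rosettes, without overlap and without passing the test. The SUFE1 gene lies wholly inside AT4G26510 on the opposite strand, and whether counting used strand is not given in the sources used here, so its value is uncertain. SUFE3, which joins a SufE domain to quinolinate synthase, an enzyme of NAD synthesis, lay at 21.85 to 23.4 RPKM in control rosettes and at 24.79 to 26.68 RPKM in Fe-deficient rosettes. SUFE2 ranged from 6.33 to 11.23 RPKM in controls and from 6.42 to 12.38 RPKM under deficiency. Thus 1 of 7 SUF genes fell in rosettes (14.3%, against 1.28% of all genes tested) and 0 rose (against 0.679%). The other 6 did not pass the test, and the median log2 change was -0.06. Few calls are expected among 7 genes at such shares, so the 6 without a call do not show a lack of response.

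**Figure D1:**
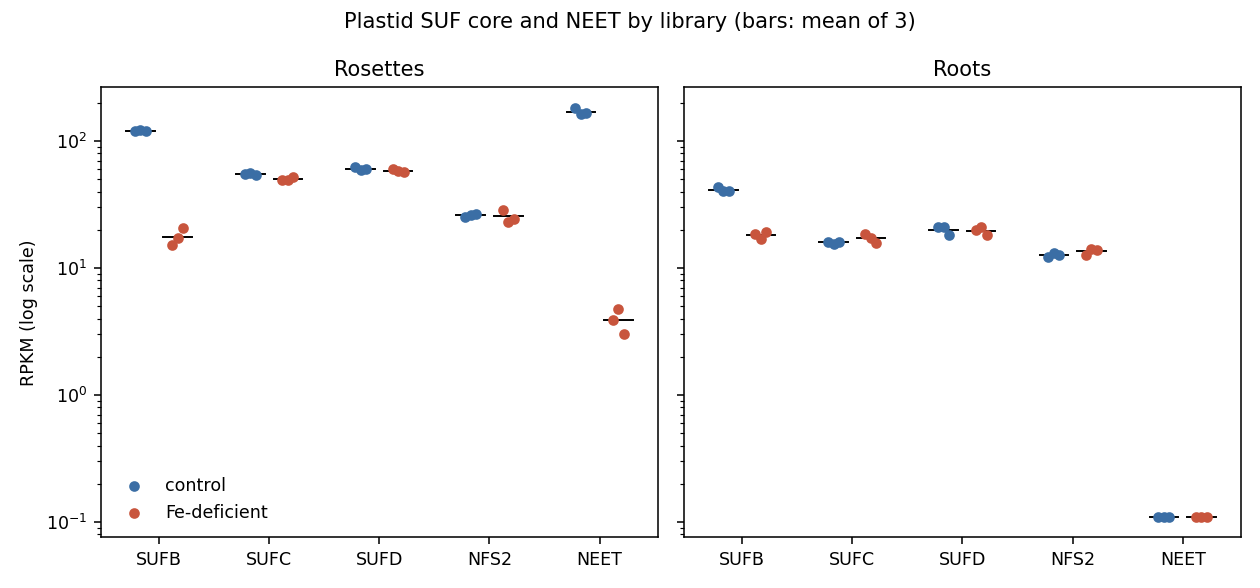
Level of 4 SUF genes and NEET in each library, in RPKM on a log axis, with rosettes on the left and roots on the right; points are the 3 libraries of a group, spread sideways for visibility, and bars are their means. SUFB stands apart between control and Fe-deficient libraries in both organs, NEET does so in rosettes, where it reaches 183.02 RPKM, and NEET lies at 0.11 RPKM in every root library.

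In roots SUFB fell as well, from 43.28, 40.28 and 40.76 RPKM in the controls to 18.44, 17.08 and 19.18 RPKM in the Fe-deficient libraries. No Fe-deficient root library reached any control root library. The means were 41.4 ± 1.61 and 18.2 ± 1.07 RPKM (SD, n = 3 each), a 2.27-fold lower level. The log2 change was -1.16 with a 95% interval of -1.32 to -1.01 and an adjusted p of 0.00014 (limma). Genes that mark rosette tissue also had lower levels in these root libraries. The summed level of the 6 markers was 120.4 to 141.1 RPKM in control roots and 84.1 to 101.1 RPKM in Fe-deficient roots. Of the 5 tested, 3 fell (60%, against 2.35% of all genes tested in roots). CA1, the marker not tested, was listed at 0.04 to 0.13 RPKM. The 5 root markers other than the tied PYK10 summed to 160 to 186 RPKM and 153 to 217 RPKM in the same groups. Of these, EXPA7, a root hair gene picked here after its values were seen, lay at 14.72 to 16.73 RPKM in control roots and 18.81 to 26.27 RPKM in Fe-deficient roots (log2 change 0.57, adjusted p 0.066, limma). The part of the rosette markers in the SUFB value was not tested.

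The other SUF genes of roots did not pass the test. SUFC measured 15.97, 15.6 and 16.14 RPKM in control roots and 18.53, 17.22 and 15.73 RPKM in Fe-deficient roots. SUFD measured 20.89, 20.94 and 18.2 RPKM against 20.04, 20.88 and 18.28 RPKM. In both genes the groups overlapped. SUFE2 and SUFE3 lay higher in every Fe-deficient root library, at 7.73 to 8.3 RPKM against 5.46 to 6.86 RPKM and at 22.34 to 24.07 RPKM against 18.66 to 22.24 RPKM. The SUF genes of roots had a median log2 change of 0.09.

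Ratios within a library restate these levels as a balance among the subunit genes. In control rosettes the SUFB level was 2.17, 2.18 and 2.24 times that of SUFC, and in Fe-deficient rosettes it was 0.309 to 0.394 times that of SUFC in all 3. The mean ratio went from 2.19 ± 0.0358 to 0.351 ± 0.0428 (SD, n = 3 each), so SUFB passed from the most abundant of the 3 subunit transcripts to the least abundant. In roots the ratio to SUFC went from 2.61 ± 0.0946 to 1.07 ± 0.130, which left the subunit transcripts near parity. The SUFB to SUFD ratio went from 1.99 ± 0.0949 to 0.304 ± 0.0528 in rosettes, and its root values were 2.08 ± 0.158 and 0.929 ± 0.116. In each of these comparisons the groups did not overlap, and the two-sided exact permutation test gave p = 0.1, the smallest that 3 against 3 allows. These ratios reuse the SUFB values given above, so their separation is not an independent result. The SUFC to SUFD ratio, which leaves SUFB out, was 0.907 ± 0.0458 and 0.862 ± 0.0456 in rosettes and 0.799 ± 0.0769 and 0.870 ± 0.0506 in roots, with overlapping groups and an exact permutation p of 0.3 in each organ.

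**Figure D2:**
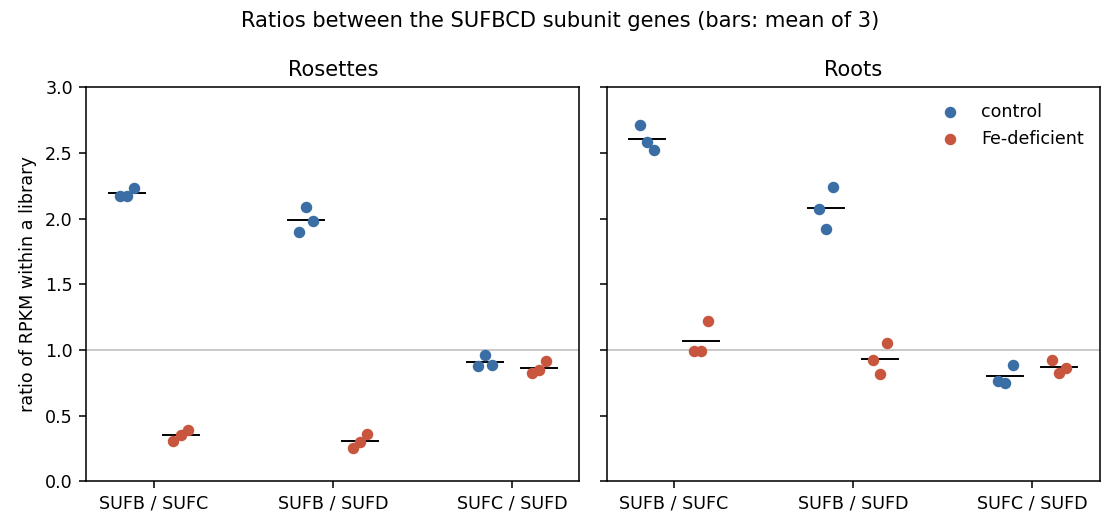
Ratio of RPKM values between the 3 SUFBCD subunit genes within each library, with rosettes on the left and roots on the right; points are libraries, black bars are means of 3 and the grey line marks a ratio of 1. Both ratios with SUFB on top drop in each organ, to a mean of 0.351 over SUFC in Fe-deficient rosettes, while the SUFC to SUFD ratios of the groups overlap.

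Whether the response of the machinery differs between organs was tested through the difference of the log2 fold changes. The test takes rosette and root libraries as independent. The labels do not say whether both organs came from the same plants, and the p-values of all organ differences rest on that assumption. Of 17680 genes tested in both organs, 3.48% had a difference that passed. Of the 35 members tested in both, 1 passed, SUFB, whose fall was larger in rosettes than in roots by a log2 difference of -1.58 (95% interval -1.86 to -1.31, adjusted p 3.3e-05, limma standard errors). The SUFB level of Fe-deficient rosettes and that of Fe-deficient roots were 17.7 and 18.2 RPKM, from controls of 120.9 and 41.4 RPKM, set side by side from separately normalised tables.

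NEET encodes a protein that binds a 2Fe-2S cluster and is located in chloroplasts and mitochondria, and it takes part in cluster transfer and iron homeostasis. It showed the largest change of any member. In control rosettes it measured 183.02, 163.52 and 165.39 RPKM, the highest control level among the 39 members, and in Fe-deficient rosettes 3.87, 4.72 and 3.01 RPKM. The groups were separated by a wide gap, with means of 170.6 ± 10.8 and 3.87 ± 0.855 RPKM (SD, n = 3 each), a 44.1-fold lower level. On the log2(RPKM + 0.5) scale NEET fell by 5.31 (95% interval -5.66 to -4.95, adjusted p 2.1e-05, limma). No other annotated gene overlaps it. In roots NEET was listed at 0.11 RPKM in all 6 libraries and was not tested.

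Calls over the whole machinery were counted beside those over all genes. Of the 39 members, 36 reached the minimum mean of 1 RPKM in rosettes and were tested; 2 of them fell, SUFB and NEET, 0 rose and 34 did not pass the test. Among all 19006 genes tested in rosettes, 1.96% were called, 0.679% as higher and 1.28% as lower. In roots 35 members were tested, of which SUFB fell, NFU5 rose and 33 did not pass. Among 19932 genes tested in roots, 5.87% were called, 3.52% as higher and 2.35% as lower. The share of members called was 5.56% in rosettes and 5.71% in roots, the latter near the share of all genes. The members were chosen with earlier results of these data known. Their shares, here and below, are therefore a description and not an independent result. The authors' deposited table gives a p under 0.05 to 2 members in rosettes, SUFB with a log2 fold change of -2.77 and NEET with -5.46, and to 1 in roots, SUFB with -1.18, and whether those p-values are adjusted is not stated.

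Among members that did not pass, the log2 changes in rosettes ran from -0.34 to 0.19, with 95% intervals reaching from -0.57 to 0.92. In roots they ran from -0.19 to 0.39, with intervals from -0.44 to 0.81. A change of the size of SUFB in its organ lies outside every such interval. Over all members tested in rosettes, SUFB and NEET included, 28 of 36 had a log2 change below 0, against 49.7% of all genes tested. The groups of 12 members did not overlap (33.3%, against 21.4% of all genes). Of these, 11 members lay lower, SUFB and NEET among them (30.6%), and 1 lay higher (2.78%), against 11.4% and 10.0% of all genes. The members' median log2 change was -0.07, against 0.0010 for all genes. In roots 17 of 35 members had a log2 change below 0, against 54.4% of all genes, and the median was 0.0034 against -0.02. The groups of 8 members did not overlap (22.9%, against 26.1% of all genes): 3 lay lower and 5 lay higher (8.57% and 14.3%, against 14.1% and 12% of all genes).

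**Figure D3:**
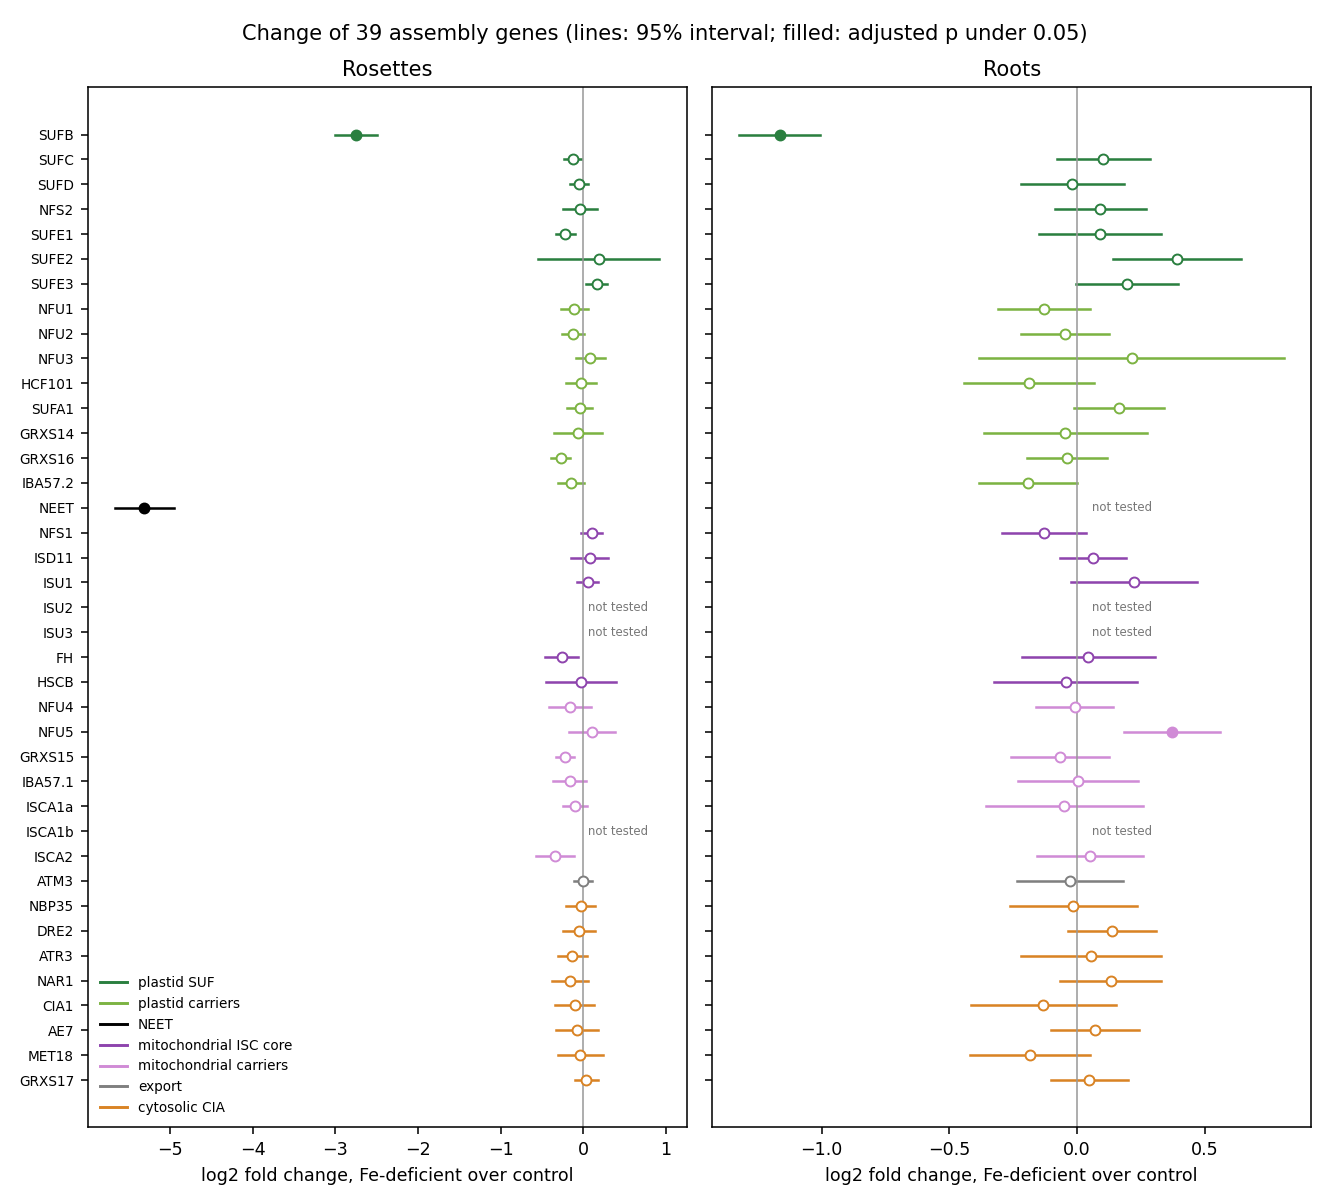
Log2 fold change of the assembly genes, Fe-deficient over control, for the 36 of 39 tested in rosettes (left) and the 35 tested in roots (right), on axes of different length; points are estimates from 3 against 3 libraries, lines are 95% intervals, and filled points have an adjusted p under 0.05. SUFB and NEET lie far to the left of all others in rosettes, SUFB does so in roots at -1.16, and NFU5 at 0.37 is the filled point to the right of 0 in roots.

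The plastid carriers receive clusters from SUFBCD, and 0 of the 8 were called in either organ. Over all genes tested, 1.96% were called in rosettes and 5.87% in roots, so few or no calls are expected in so small a set. A count of 0, here or in the sets below, therefore does not show a lack of response. NFU2, a carrier for photosystem I and other recipients, measured 83.95 to 86.27 RPKM in control rosettes and 74.19 to 83.49 RPKM in Fe-deficient rosettes. NFU3, which acts beside NFU2, lay at 27.54 to 30.78 RPKM and 29.2 to 33.51 RPKM. HCF101, which serves 4Fe-4S proteins of photosystem I, lay at 82.15 to 83.29 RPKM and 73.74 to 89.83 RPKM. The groups of NFU3 and HCF101 overlapped, and those of NFU2 did not. GRXS16 (AT2G38270), a plastid monothiol glutaredoxin, was the nearest to the threshold: it measured 79.05, 72.87 and 77.5 RPKM in control rosettes and 63.39, 64.86 and 61.29 RPKM in Fe-deficient rosettes. Its groups did not overlap, and its adjusted p was 0.054 (limma). GRXS14, the other plastid glutaredoxin, ranged over 110.24 to 128.72 RPKM and 101.97 to 134.63 RPKM. In rosettes the groups of NFU1, of the A-type protein SUFA1 and of IBA57.2, annotated as a chloroplast COG0354 protein, overlapped as well. In roots SUFA1 lay higher without overlap, at 34.24 to 35.42 RPKM in controls and 35.47 to 42.42 RPKM under deficiency. HCF101 (4.37 to 4.74 RPKM against 3.51 to 4.17 RPKM) and IBA57.2 (6.76 to 7.16 RPKM against 5.88 to 6.12 RPKM) lay lower there without overlap, and the other 5 plastid carriers overlapped. The median log2 change of the plastid carriers was -0.09 in rosettes and -0.05 in roots.

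The mitochondrial ISC core showed 0 called genes in either organ among the 5 tested, which are too few to show a lack of response. NFS1, the mitochondrial cysteine desulfurase, measured 76.09 to 85.09 RPKM in control rosettes and 84.91 to 87.88 RPKM in Fe-deficient rosettes, and 70.15 to 79.45 RPKM against 65.83 to 73.15 RPKM in roots. ISU1 (AT4G22220), the main ISC scaffold, measured 116.55, 117.92 and 118.89 RPKM in control rosettes and 129.8, 122.21 and 115.33 RPKM in Fe-deficient rosettes. In roots ISU1 measured 91.72, 109.08 and 110.82 RPKM against 133.77, 122.54 and 108.15 RPKM. The groups of ISU1 overlapped in both organs. Its paralogs ISU2 and ISU3 were listed at 0.07 RPKM in every rosette library and at 0.08 and 0.09 RPKM in every root library, so ISU1 carried nearly all measured ISU transcript.

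Frataxin (FH), which regulates the desulfurase and has been proposed to deliver iron, lay at 15.03 to 15.94 RPKM in control rosettes and at 11.52 to 13.82 RPKM in Fe-deficient rosettes, without overlap and without passing the test. In roots its ranges were 30.15 to 34.59 RPKM and 28.01 to 36.21 RPKM. The LYR-family protein ISD11, a partner of the desulfurase, and the DNAJ-type cochaperone HSCB overlapped between groups in both organs. Beside these, 7 genes that help ISC and CIA assembly passed the filter, among them the mitochondrial ferredoxins and HSCA chaperones. They gave 0 calls in either organ, against 1.96% of all genes in rosettes and 5.87% in roots. Their median log2 changes were 0.06 in rosettes and 0.00038 in roots.

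Among mitochondrial carriers, NFU5 (AT1G51390; chromosome 1, 19050298 to 19052094, plus strand, 6 exons) was the one gene called. In roots it measured 12.87, 11.85 and 13.74 RPKM in controls and 17.02, 17.23 and 15.9 RPKM under deficiency, with no overlap. Its mean went from 12.8 ± 0.946 to 16.7 ± 0.715 RPKM (SD, n = 3 each), a log2 change of 0.37 (95% interval 0.18 to 0.56, adjusted p 0.044, limma). Leaving out any 1 of the 6 root libraries ended the call, with adjusted p between 0.0575 and 0.151 (limma), and the authors' deposited table gives NFU5 a p of 0.47 in roots. NFU5 overlaps AT1G51400 by 72 bases and AT1G07733 by 249 bases, both on the opposite strand. AT1G51400 averaged 2.97 RPKM in control roots and 1.32 RPKM in Fe-deficient roots, and AT1G07733 was not analysed here. In rosettes NFU5 measured 13.31, 14.04 and 13.61 RPKM against 17.59, 13.9 and 12.96 RPKM, a log2 change of 0.10 (adjusted p 0.72, limma), and the response was not shown to differ between organs (adjusted p 0.38).

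NFU4, the close relative of NFU5, lay at 23.17 to 25.0 RPKM in control roots and 22.66 to 24.54 RPKM in Fe-deficient roots. GRXS15, the mitochondrial monothiol glutaredoxin, lay at 43.33 to 44.5 RPKM in control rosettes and 36.19 to 38.93 RPKM in Fe-deficient rosettes, without overlap. ISCA2, an A-type carrier, behaved alike at 14.91 to 18.4 RPKM and 12.99 to 13.92 RPKM, as did IBA57.1 at 6.7 to 7.89 RPKM and 6.26 to 6.64 RPKM. These 3 did not pass the test, and in roots their groups overlapped. ISCA1a, the other A-type carrier with measurable transcript, overlapped in both organs, while ISCA1b did not exceed 0.21 RPKM in any library. The median log2 change of the mitochondrial carriers was -0.16 in rosettes and -0.0025 in roots.

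The export and cytosolic steps had 0 called members in either organ, against 1.96% of all genes in rosettes and 5.87% in roots. ATM3 (AT5G58270), the mitochondrial ABC transporter that links the ISC and CIA pathways, measured 23.53, 22.71 and 23.5 RPKM in control rosettes and 23.9, 22.8 and 22.89 RPKM in Fe-deficient rosettes. In roots it measured 18.48, 15.34 and 18.2 RPKM against 17.01, 17.37 and 16.48 RPKM. The groups overlapped, and the 95% interval of its log2 change was -0.11 to 0.11 in rosettes and -0.23 to 0.18 in roots. NBP35, the CIA scaffold, lay at 29.63 to 35.1 RPKM and 30.47 to 32.91 RPKM in rosettes. DRE2 and ATR3 pass electrons to the CIA scaffold: DRE2 overlapped in rosettes and lay higher without overlap in roots (37.21 to 42.48 RPKM against 42.49 to 46.95 RPKM), while ATR3 lay lower without overlap in rosettes (7.28 to 7.68 RPKM against 6.32 to 7.11 RPKM). NAR1, the carrier that follows the scaffold, and the targeting proteins CIA1, AE7 and MET18 overlapped between groups in both organs. GRXS17, the cytosolic monothiol glutaredoxin, measured 26.25 to 29.16 RPKM and 27.29 to 29.03 RPKM in rosettes. The CIA genes had median log2 changes of -0.07 in rosettes and 0.05 in roots.

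With iron present, compartments differed in how their levels compared between organs, in values set across the separately normalised tables and given without a test. The rosette to root ratio of control means was above 1 for all 7 SUF genes (1.14 to 3.47, median 2.82) and for all 8 plastid carriers (1.97 to 18.4, median 4.14). HCF101 had the highest ratio, at 82.6 RPKM in rosettes and 4.50 RPKM in roots, followed by NFU3 at 29.1 and 3.36 RPKM. The ISC core genes had ratios of 0.489 to 1.13 (median 0.853). Those of the CIA genes were 0.521 to 0.948 (median 0.716), so that all 8 CIA genes had the higher value in roots. The median over all 17680 genes tested in both organs was 0.784, so a higher value in roots was also typical of all genes. NBP35, ATR3 and NAR1 lay above that median, at 0.948, 0.916 and 0.899, and the other CIA genes lay below it. NEET stood at 170.6 RPKM in control rosettes and was listed at the same 0.11 RPKM in every root library. That root value is too low to compare, so NEET was not ranked with these.

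**Figure D4:**
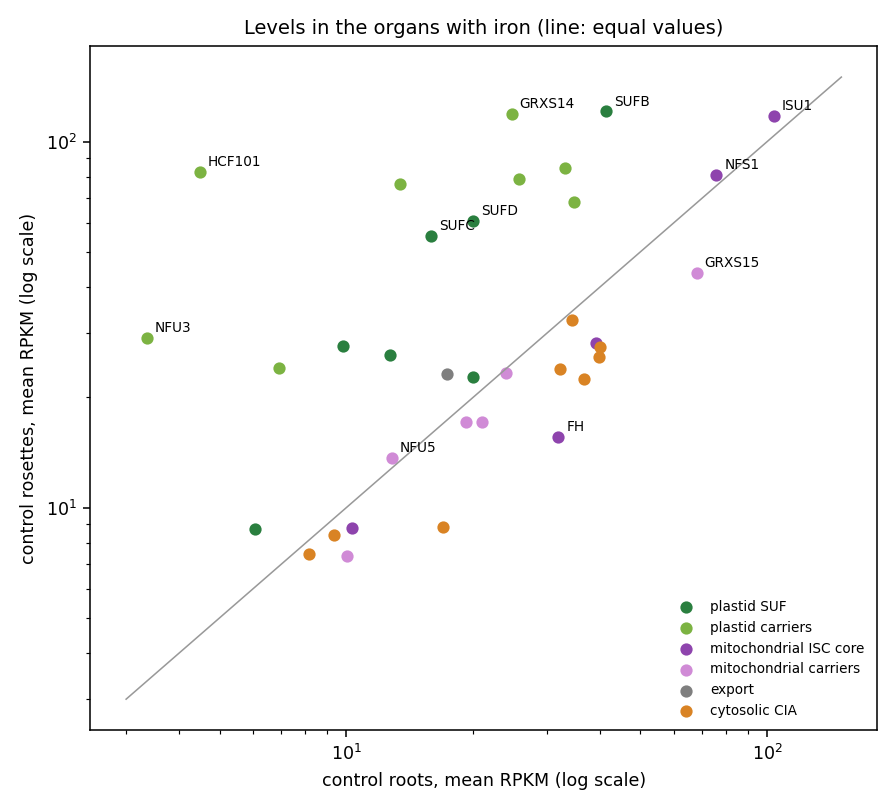
Mean level of each assembly gene tested in both organs in control roots (horizontal, RPKM, log axis) and control rosettes (vertical, RPKM, log axis), coloured by compartment; each point is a mean of 3 libraries per organ, and the line marks equal values. Plastid genes lie above the line, with HCF101 farthest from it at 82.6 against 4.50 RPKM, and the CIA genes lie below it.

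The proteins that receive the clusters were read from lists of their genes beside the machinery. These lists, for all compartments, were chosen with earlier results of these data known. Their shares of called genes are therefore a description and not an independent result. In plastids 25 such genes were tested, of which 5 fell and 0 rose in rosettes (20% called, against 1.96% of all genes), and 6 fell and 1 rose in roots (28%, against 5.87%). FD2, the main leaf ferredoxin, measured 1731.35, 1720.05 and 1697.69 RPKM in control rosettes and 586.97, 521.46 and 621.22 RPKM in Fe-deficient rosettes, a log2 change of -1.58 (adjusted p 2.3e-04, limma). ASE2, the amidotransferase that opens purine synthesis, fell by 1.23 in rosettes and by 0.50 in roots on the log2 scale. The sulfite reductase SIR fell by 1.18 and 0.64, and DHAD, a dehydratase of branched-chain amino acid synthesis, fell by 1.1 and 0.50. Among the most changed in roots, the nitrite reductase NIR1 fell by 0.66 (adjusted p 4.3e-04, limma), from 369.82 to 389.86 RPKM in controls to 235.29 to 245.24 RPKM. The gene that rose in roots was APR1, an adenylyl-sulfate reductase, at 97.44 to 111.8 RPKM in controls and 148.41 to 162.87 RPKM under deficiency (log2 change 0.55, adjusted p 0.0069, limma). The median log2 change of the plastid list was -0.11 in rosettes and -0.12 in roots.

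Mitochondrial recipients gave 3 lower and 0 higher genes of 16 tested in rosettes, and 2 lower and 0 higher of 17 in roots, where 1.28% and 2.35% of all genes were called lower. The aconitase gene ACO3 measured 124.03, 121.12 and 128.79 RPKM in control rosettes and 40.61, 43.5 and 50.79 RPKM in Fe-deficient rosettes, a log2 change of -1.47 (adjusted p 6.3e-04, limma). In roots it measured 213.33, 216.19 and 215.25 RPKM against 149.05, 151.01 and 152.15 RPKM, a log2 change of -0.51 (adjusted p 8.5e-04, limma). SDH2-2 and SDH2-1 encode the iron-sulfur subunit of succinate dehydrogenase: SDH2-2 fell by 0.92 in rosettes and by 0.49 in roots on the log2 scale, and SDH2-1 fell by 0.74 in rosettes. Both overlap a neighbouring gene (AT5G40660 on the opposite strand for SDH2-2, AT3G27360 on the same strand for SDH2-1), and neither neighbour was called in rosettes. Cytosolic and nuclear recipients gave 1 lower gene of 16 in rosettes and 0 of 16 in roots (limma), beside the same shares of all genes. That gene was RLI2, an ABC protein of ribosome recycling, at 61.01, 61.65 and 63.82 RPKM in control rosettes and 34.73, 34.67 and 35.24 RPKM in Fe-deficient rosettes (log2 change -0.82, adjusted p 2.3e-04, limma).

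Some of these calls rest on single libraries or on the settings of the fit. NIR1 fell by 0.35 in rosettes (adjusted p 0.045, limma), and this call ended when any 1 rosette library was left out, with adjusted p of 0.082 to 0.151, as well as with no filter (0.124), without the trend (0.0949) and under the replicate block (0.152). In roots ASE2 lost its call without control replicate 1 or 2 or Fe-deficient replicate 1 or 2 (adjusted p 0.0547 to 0.0814) and under the block (0.0629). DHAD lost it without control replicate 2 or 3 (adjusted p 0.0578 and 0.0545, limma) and with no filter (0.0793).

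**Figure D5:**
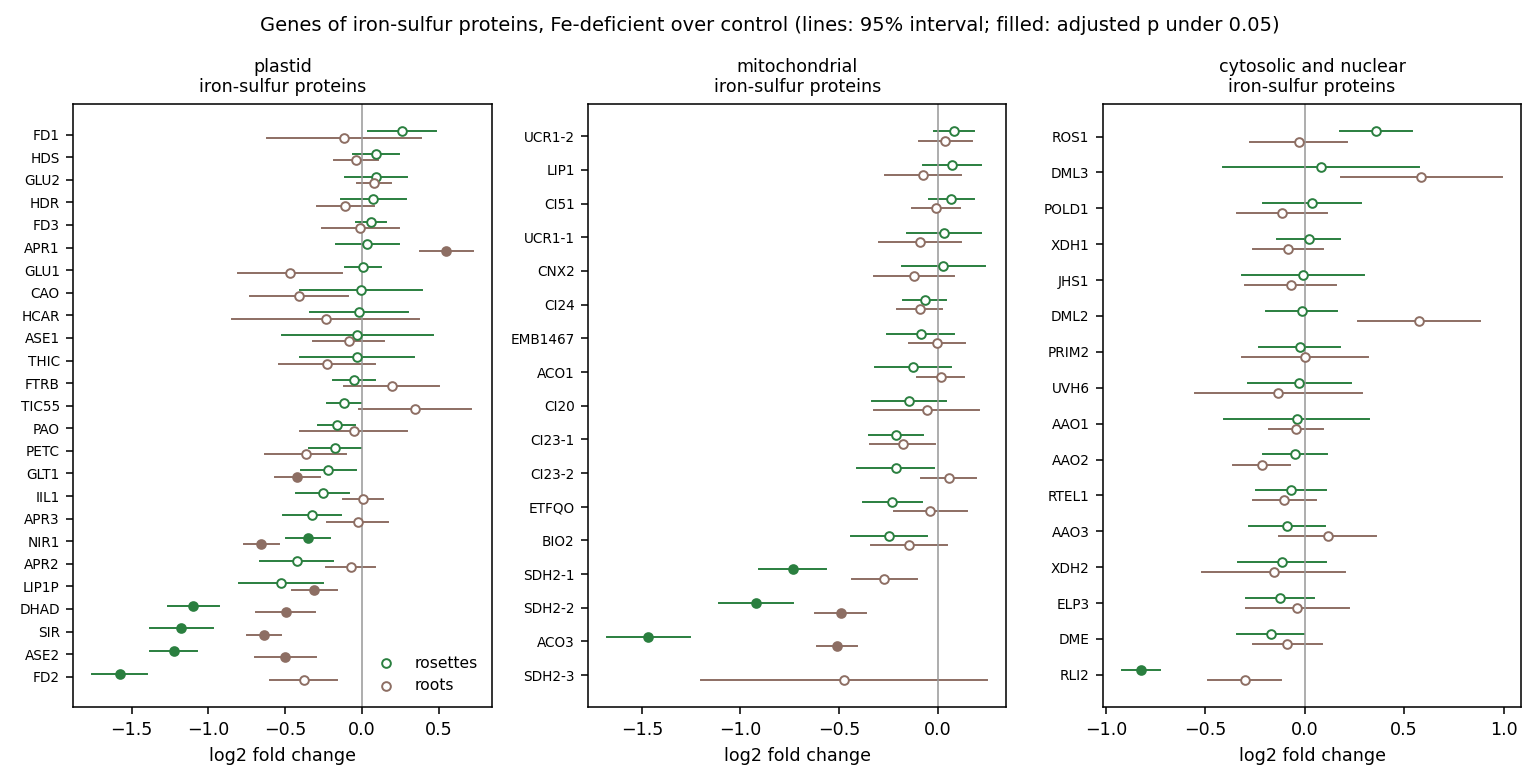
Log2 fold change, Fe-deficient over control, of the genes of plastid, mitochondrial, and cytosolic and nuclear iron-sulfur proteins, with rosettes in green and roots in brown; lines are 95% intervals, and filled points have an adjusted p under 0.05. FD2, ASE2, SIR and DHAD stand lowest among plastid genes of rosettes, ACO3 at -1.47 among mitochondrial genes and RLI2 at -0.82 among cytosolic and nuclear genes, while most other intervals lie near 0.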

How the data were processed

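Per the labels, 12 libraries of polyadenylated RNA fall into 4 groups of 3. The authors deposited RPKM values per gene and organ, in separately normalised tables; the unit was inferred from the values, whose distribution looks equalised across the 6 libraries of a table, which removes change common to most genes. The deposited tables also hold the authors' p-value and log2 fold change. The submitters' processing notes name bcl2fastq 1.8.4, Trimmomatic 0.35, Bowtie2 2.0.6, edgeR 3.12.1, limma 3.26.9 and TAIR10, with no role given; use of strand is not given in the sources used here. Depth is unknown, so no counting interval is given. Here, 4 rows that name no gene were left out. Genes averaging 1 RPKM or more over the 6 libraries were compared as log2(RPKM + 0.5) with limma 3.58.1 in R 4.3.3 (eBayes with trend, two-sided, Benjamini-Hochberg over all genes tested in that organ, called at an adjusted p under 0.05). Organ differences used the summed squared standard errors with Satterthwaite degrees of freedom, which takes rosette and root libraries as independent. Fold changes on this scale understate low genes. The alternatives were the pseudocount, filter, centring, trend, weights, block, a joint fit and leaving out each library. Fits were tested on simulated data. Fold changes are printed for members called, or with an absolute log2 change of at least 0.5, and for up to 4 called genes per list and organ. Beside the genes given here, 1 further gene of the lists was left out and is not reported here. The members and lists were chosen with earlier results of these data known.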

Additional observations from a re-analysis of the deposited data

Results flagged for a closer look

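For these genes the response differed between organs, with the rosette minus root difference of log2 fold changes passing an adjusted p under 0.05 (limma standard errors, Satterthwaite degrees of freedom). Among the assembly genes, SUFB differed by -1.58 (adjusted p 3.3e-05).

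Among genes of plastid iron-sulfur proteins, the difference was -1.20 for FD2 (adjusted p 6.3e-05), -0.73 for ASE2 (0.0014), -0.60 for DHAD (0.0055) and -0.54 for SIR (0.014), with the lower log2 change in rosettes. It was -0.51 for APR1 (0.022), which rose in roots and had a log2 change of 0.03 in rosettes. It was 0.30 for NIR1 (0.048), which had the lower log2 change in roots, and this difference missed the threshold in 14 of 21 alternatives.

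Among genes of mitochondrial iron-sulfur proteins, it was -0.96 for ACO3 (adjusted p 5.6e-04), -0.46 for SDH2-1 (0.018) and -0.43 for SDH2-2 (0.030). RLI2, of the cytosolic and nuclear list, differed by -0.52 (0.0077). Of the iron status genes named with levels, bHLH38 differed by 2.62 (4.9e-04) and FER1 by -2.53 (1.1e-04).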

How the results depend on the processing

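Under all alternatives run, SUFB remained called lower in both organs (log2 change -2.86 to -2.65 in rosettes and -1.20 to -1.12 in roots), NEET in rosettes (-5.45 to -5.15), and the SUFB organ difference (-1.69 to -1.49). Members lower in rosettes numbered 2 or 3; GRXS16 was added with a filter at a mean of 5, array weights or 1 fit of all 12 libraries. Members higher in roots went from 1 (NFU5) to 0 with no filter, without the trend, under the replicate block and without each root library in turn (0 to 0); the cause was not tested. Members whose response differed between organs numbered 2 in place of 1 with no filter (NEET added) and in the joint fit (GRXS16 added), and 1 to 2 when single libraries were left out. NEET was listed at 0.11 RPKM in every root library, so its root value could not show a change. Its organ difference with no filter therefore restates its fall in rosettes.

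Genes called in rosettes numbered 372, against 559 with array weights, 188 under the replicate block, 562 in the joint fit and 170 to 325 with single libraries left out. Genes called in roots numbered 1170, against 692 with no filter and 550 to 988 with single libraries left out. APR1 in rosettes, at 0.03, reversed to -0.0103 with array weights, to -0.0203 without control replicate 3 and to -0.0189 without Fe-deficient replicate 3, and ranged up to 0.10 with single libraries left out. NFU5 in rosettes reversed to -0.0234 without Fe-deficient replicate 1 and ranged up to 0.19. Neither was called there.

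The organ differences of NIR1, SDH2-2, SDH2-1, APR1, SIR and RLI2 each missed the threshold with no filter and when some single libraries were left out (NIR1 also with median centring, without the trend and under the replicate block, SDH2-2 also without the trend), with adjusted p up to 0.142, 0.102, 0.0564, 0.0848, 0.0877 and 0.0648. Replicate numbers were not used as pairs: deviations of same-numbered samples correlated at 0.0885, -0.160 and 0.247 in rosettes and at -0.0033, 0.0062 and 0.103 in roots. Rescaling by TMM factors, planned as an alternative, was computed and then left out, because the tool that computes them models raw counts. It kept SUFB and NEET called and called GRXS16 lower in rosettes as well. As read depth is unknown, levels near 0.1 RPKM could not be compared.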
